A study of Mus musculus with 6 samples.

Results

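Ccl21a, a lymphatic chemokine gene, and Vcam1, an endothelial adhesion molecule gene, are 2 of the 4233 genes listed for lymphatic endothelial cells of the mouse meninges. They were taken by name as 2 genes of leukocyte trafficking and were chosen by their normalised read counts in WT and 5xFAD. Those values are therefore a description without a test. No test is reported for these 2 genes, which stay among the 4152 fitted together, and tests are given for other genes only.

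Cells were sorted from brain meninges of male C57BL/6J mice aged 6 months as live single cells without CD45 that carried CD31 and podoplanin. The 3 WT libraries came from non-transgenic littermates and the 3 5xFAD libraries from hemizygous 5xFAD mice. The 5xFAD strain carries human familial Alzheimer disease transgenes driven by the Thy1 promoter, which is active mainly in neurons, and deposits amyloid in the brain. Each library was made from cells pooled from 10 mice, so the spread between libraries is a spread between pools, and the transgenes were not checked from the reads.

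Lymphatic endothelial cells release CCL21, which binds heparan sulfate around the vessel and draws dendritic cells and T cells that carry its receptor CCR7 into the lymphatic lumen. VCAM1 is held at low level on resting endothelium and is raised by NF-κB signalling, and it binds leukocyte integrins made of the α4 chain (Itga4) with a β chain. In mice the Ccl21 genes form a cluster of near-identical copies, with a serine form of the chemokine encoded by Ccl21a and a leucine form encoded by other copies.

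The stretch of coding sequence that separates Ccl21a from the 2 copies measured beside it, Gm13304 and Gm21541, is shown. It is part of what lets Ccl21a reads be told from those of the copies, with further differences outside the coding sequence. The lines give coding bases 64 to 214, counted from the A of the start codon and written 5′ to 3′ on the coding strand, from GENCODE M21 transcripts on GRCm38, with the bases that differ in capitals.
Ccl21a: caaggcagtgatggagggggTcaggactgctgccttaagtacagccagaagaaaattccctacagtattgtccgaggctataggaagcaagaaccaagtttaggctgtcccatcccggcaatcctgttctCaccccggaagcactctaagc
Gm13304: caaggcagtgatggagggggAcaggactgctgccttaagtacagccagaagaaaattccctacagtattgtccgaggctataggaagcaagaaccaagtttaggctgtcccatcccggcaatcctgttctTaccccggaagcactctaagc
Gm21541: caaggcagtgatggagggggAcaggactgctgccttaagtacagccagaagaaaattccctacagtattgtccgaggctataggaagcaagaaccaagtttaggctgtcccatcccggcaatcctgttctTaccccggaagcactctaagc

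The substitutions from Ccl21a to either copy were T84A and C194T, the only differences in the 402 coding bases (99.5% identity). Gm13304 and Gm21541 had the same coding sequence, and so did Ccl21b and Gm10591, further copies in the annotation that were not analysed here. Over whole transcripts, Ccl21a (870 bases) differed from Gm21541 (870 bases) at 6 bases and from Gm13304 (837 bases) at 5 bases. Gm13304 and Gm21541 were identical over the 837 bases that align. RefSeq names the Gm21541 locus Ccl21d.

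Of the 840 stretches of 31 bases in the Ccl21a transcript, 163 (19.4%) occurred in no other annotated gene. For Gm21541 this was 24 of 840 (2.86%), all at the 5′ end, and for Gm13304 it was 0 of 807. Vcam1 stood at the other extreme, with all 3439 stretches of its 3469-base transcript found in no other gene. A Vcam1 count is therefore not shared with another annotated transcript, while the split of reads among the Ccl21 copies rests on 6 short parts of the transcript.

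**Figure D1:**
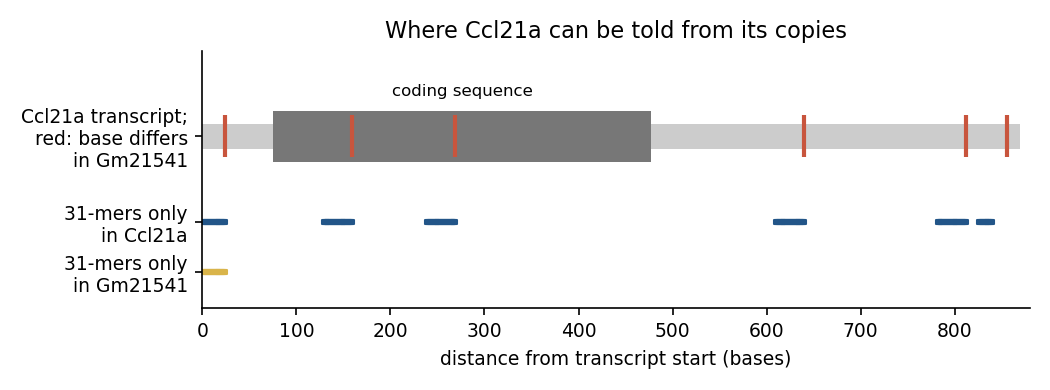
Ccl21a transcript drawn by distance from its start in bases, with the coding sequence as the dark box and the 6 bases that differ in Gm21541 in red; the rows below mark the start of each 31-base stretch found in only 1 annotated gene. Such stretches cover 6 short parts for Ccl21a (163 of 840) and 1 part at the 5′ end for Gm21541 (24 of 840).

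Ccl21a was among the most abundant genes in both genotypes, 8th of 4233 by mean normalised read count. Its normalised read counts were 54460, 61496 and 70723 in the WT libraries, 62227 ± 8156 (SD, n = 3). In 5xFAD they were 88651, 50726 and 53613, 64330 ± 21112 (SD, n = 3). The groups overlapped: the highest library and both lowest ones were 5xFAD, with every WT library between them. The difference in mean level, 5xFAD minus WT, was 0.01 on the log2(normalised read count + 1) scale, the scale of all log2 fold changes here, against SDs of 0.19 in WT and 0.44 in 5xFAD. Without the library 5xFAD 1 the difference was -0.25, and without 5xFAD 2 it was 0.16. Counting error was far smaller than this spread, with 40410 to 106884 reads per library.

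Gm13304 was at 39817, 30904 and 27504 in WT and at 38517, 33890 and 48311 in 5xFAD. Gm21541 was at 8985, 5702 and 16348 in WT and at 33184, 5402 and 24997 in 5xFAD. Neither copy passed the test, with log2 fold changes of 0.30 (SE 0.33; limma adjusted p = 0.755) and 0.81 (SE 0.50; adjusted p = 0.443, both by limma). The call changed for Gm21541 without 5xFAD 2, its lowest library, where the log2 fold change was 1.61 (limma adjusted p = 0.0306).

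Summed over Ccl21a and the 2 measured copies, so that a division of reads among these 3 has no effect, the level was 103262, 98103 and 114576 in WT and 160351, 90018 and 126921 in 5xFAD. The groups again overlapped, with 5xFAD holding the lowest and the 2 highest sums, and the log2 difference was 0.22. Ccl21a itself made up 52.7%, 62.7% and 61.7% of the sum in WT and 55.3%, 56.4% and 42.2% in 5xFAD. The sum came to 1.07 ± 0.0402% of all normalised counts of listed genes in WT and 1.17 ± 0.268% in 5xFAD (SD, n = 3).

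**Figure D2:**
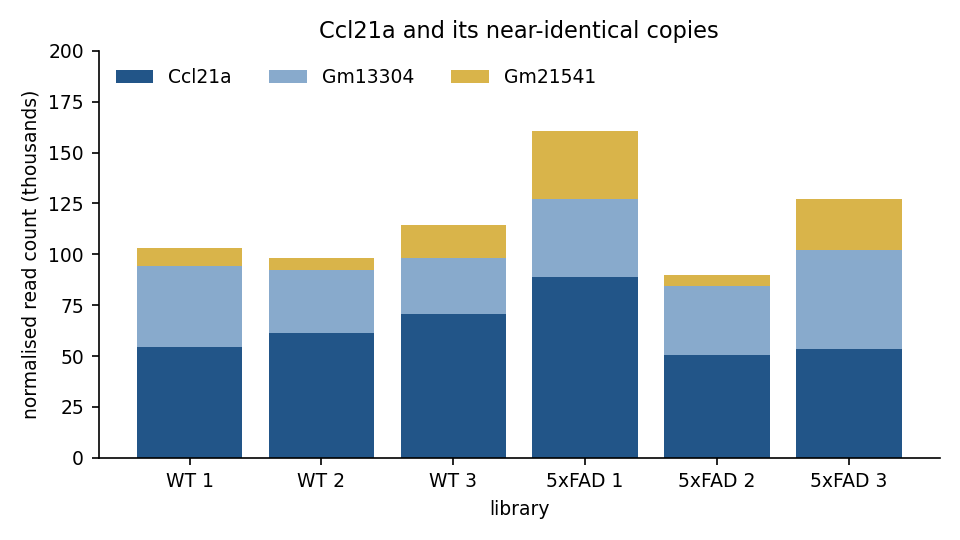
Normalised read counts (axis divided by 1000) of Ccl21a and its near-identical copies Gm13304 and Gm21541 in each of the 6 libraries, stacked so that the height of a bar is their sum. The sums run from 90018 (5xFAD 2) to 160351 (5xFAD 1), and the WT sums lie between 98103 and 114576.

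Vcam1 had a normalised read count of 1658, 515 and 233 in the WT libraries, 802 ± 755 (SD, n = 3). In the 5xFAD libraries it was at 0, 12.2 and 6.63, 6.26 ± 6.09 (SD, n = 3). Every 5xFAD library was below every WT library, and the lowest WT value was still many times the highest 5xFAD value. Groups without overlap, at any distance, were found in 18.1% of the 4152 genes tested, 10.1% with 5xFAD lower and 7.97% with 5xFAD higher.

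The log2 fold change of Vcam1 was -6.98, the 27th lowest of 4152. In reads, 2835 in WT (2018, 554 and 263) stood against 15 in 5xFAD (0, 10 and 5). The ratio of WT to 5xFAD reads, corrected for library size, was 154, with an exact 95% interval of 93.0 to 275. That interval covers counting error only, with each read taken as independent, and the amplification before sequencing was not allowed for. The ratio was 68.7 without WT 1, 87.0 without 5xFAD 1 and 325 without 5xFAD 2. The library without a Vcam1 read, 5xFAD 1, held the most reads of all, 13255050 in listed genes, where 3 reads would be a normalised count of 2.49.

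The size of the Vcam1 difference moved with single libraries. With 1 library left out the direction for Vcam1 could not change, because its groups did not overlap. Its log2 fold change was -6.22 without WT 1 and -7.64 without WT 3. It was -5.87 without 5xFAD 1, -7.73 without 5xFAD 2, -7.07 without WT 2 and -7.33 without 5xFAD 3. Vcam1 was also a variable gene within genotypes. Its WT libraries differed 7.13-fold, with an SD of 1.42 on the log2 scale, where the median SD was 1.00 for the 1284 genes within 2-fold of its WT level and 75.4% of them had a lower SD. Its SD in 5xFAD was 1.96.

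The table itself bears on such a gene. Within WT and within 5xFAD, the SD of log2(reads + 1) stayed under 2 for all listed genes (highest 1.9996 in both), while over all 6 libraries 328 genes reached it. Vcam1 lay inside that limit at 1.49 in WT and 1.80 in 5xFAD. A gene at near 0 in a whole group can meet such a limit, and a gene lost in only 1 library of a group often cannot. The limma SEs come from the spread of these listed genes, all under the limit. The adjusted p values and shares of genes called here therefore rest on it, and its part in them was not tested. Listed genes without any read numbered 25 to 42 per WT library and 86 to 147 per 5xFAD library.

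Of the 3364 genes with a WT mean of at least 100, 53 (1.58%) were under 20 in each 5xFAD library, Vcam1 among them. The reverse held for 20 of the 3313 genes with a 5xFAD mean of at least 100. These cut-offs were chosen after the values were seen. They do not require groups without overlap, and they take in smaller fold changes than that of Vcam1, the 27th lowest.

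**Figure D3:**
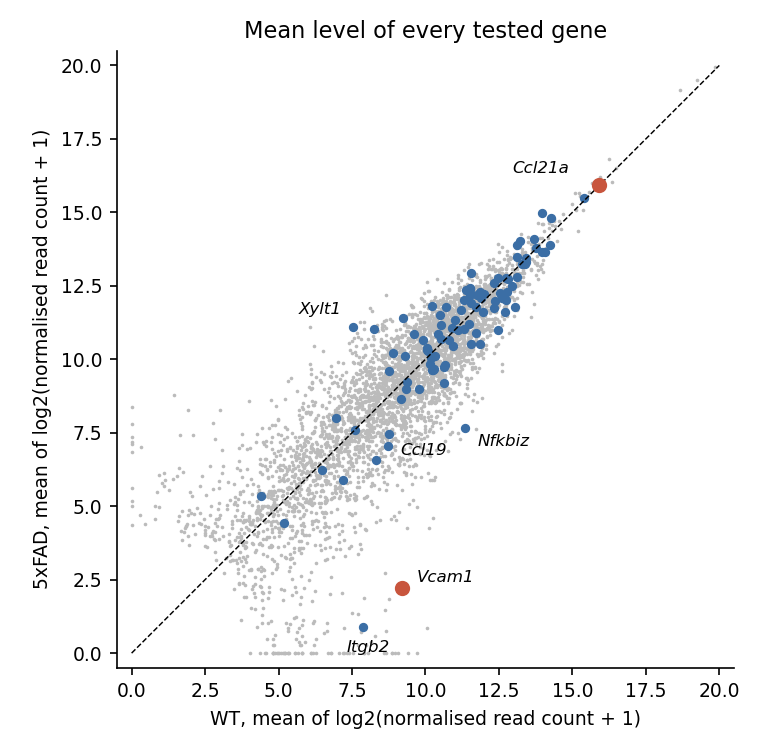
Mean log2(normalised read count + 1) in 5xFAD (vertical axis) against WT (horizontal axis) for the 4152 genes tested in grey, with the 96 trafficking genes of the role lists in blue and Ccl21a and Vcam1 in red; the dashed line marks equal levels. Ccl21a lies on the line near the top, while Vcam1 (-6.98) and Itgb2 (-7.01) lie far below it.

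Set per length of their longest protein-coding transcript, the 2 genes differed widely in level. Ccl21a was at 71525 ± 9375 normalised counts per kb in WT and 73942 ± 24266 in 5xFAD (SD, n = 3). Vcam1 was at 231 ± 218 per kb in WT and 1.81 ± 1.75 in 5xFAD. The order was thus Ccl21a in both genotypes, which did not differ beyond their spread, then Vcam1 in WT, then Vcam1 in 5xFAD.

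Ccl21a lies on chromosome 4 at 42772860 to 42773993 (GRCm38, minus strand), in 4 exons. The nearest listed gene at lower coordinates was Ccl19, the other ligand of CCR7, 16.3 kb away. Ccl19 was at 399, 526 and 399 in WT and 45.6, 349 and 326 in 5xFAD. All 5xFAD values were below all WT values, but 5xFAD 1 was far the lowest, and Ccl19 did not pass the test (log2 fold change -1.33, SE 1.04; limma adjusted p = 0.604). Only 34.7% of the 31-base stretches of its longest transcript were found in no other gene, so its level is uncertain too. Per kb it was at 571 ± 95.3 in WT, far below Ccl21a.

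The nearest listed gene at higher coordinates was Vcp, an ATPase of protein quality control, with a log2 fold change of -0.43 (limma adjusted p = 0.883). Of the genes beside the Ccl21 copies, Il11ra1, a receptor chain for interleukin 11, was at 1128, 217 and 114 in WT and 1204, 1820 and 1999 in 5xFAD, with no overlap. It did not pass the test (log2 fold change 2.43; limma adjusted p = 0.129). The predicted genes Gm3892 and Gm13299 had log2 fold changes of 0.98 and -1.71 (limma adjusted p = 0.669 and 0.449). The next gene out beyond Il11ra1, Fam219aos, 384.7 kb from Gm21541, was at 0 in all 3 WT libraries and at 8.29, 58.4 and 86.2 in 5xFAD (10, 48 and 65 reads), and it rose by the test (limma adjusted p = 2.62e-05). It is an antisense RNA gene that overlaps Fam219a, and since no use of strand in the counting is stated, reads of the pair may not be told apart. It was named after its values were seen.

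Vcam1 lies on chromosome 3 at 116109949 to 116129688 (GRCm38, minus strand), and its longest protein-coding transcript has 9 exons. The listed genes on its sides were Slc30a7, a zinc transporter, 102.5 kb away, and Cdc14a, a phosphatase, 142.9 kb away. Neither passed the test, with log2 fold changes of -1.17 (limma adjusted p = 0.663) and 0.93 (limma adjusted p = 0.685). S1pr1, the sphingosine-1-phosphate receptor gene that comes next, 394.9 kb away, was at 0.43 (limma adjusted p = 0.855).

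Of 9 integrin chains that bind VCAM1 or ICAM1, 4 were measured, and the others were not analysed here. Itga4, the α4 chain, was at 425, 665 and 372 in WT and 1237, 1148 and 1194 in 5xFAD. Its groups did not overlap and its 5xFAD libraries lay close together, yet it did not pass the test (log2 fold change 1.33, SE 0.97; limma adjusted p = 0.559), and it was named after its values were seen. Itgb1, the β1 chain that pairs with it, had a log2 fold change of -0.33, and Itga9, the α9 chain, of 0.05 (limma adjusted p = 0.896 and 0.985).

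Itgb2, the β2 chain of the leukocyte integrins that bind ICAM1, fell with the same form as Vcam1. It was at 312, 471 and 89.3 in WT and 1.66, 0 and 1.33 in 5xFAD, with no overlap, and it was the 1 of these 4 chains that passed (log2 fold change -7.01, SE 1.06; limma adjusted p = 5.02e-09). The WT libraries held 988 Itgb2 reads and the 5xFAD libraries 3, for a library-size corrected ratio of 268 (455 without 5xFAD 1). For Itgb2 the exact 95% counting interval, limited as for Vcam1, was 91.3 to 1300. With 1 library left out, its log2 fold change was -6.81 (WT 1), -6.52 (WT 2), -7.71 (WT 3), -7.28 (5xFAD 1), -6.58 (5xFAD 2) and -7.19 (5xFAD 3), and the test was passed each time.

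Itgb2 is mainly a gene of white blood cells, which the sort left out by CD45, and its level was read beside the leukocyte markers. Of 20 leukocyte markers 3 were among the listed genes, Mrc1, H2-Aa and Cd8a, and Mrc1 is also expressed by lymphatic endothelium. Absence from the list does not show that a marker had no reads. The summed normalised count of these 3 markers was 10967 to 17023 in WT and 10846 to 12997 in 5xFAD. Cd8a, a T cell co-receptor chain, was at 14, 52.1 and 81.4 in WT and at 0 in all 3 5xFAD libraries, at least 44.7-fold lower with a floor of 3 reads over the group. It passed the test (limma adjusted p = 1.39e-05). That bound was 62.2 without WT 1, 29.5 without WT 3 and 25.3 without 5xFAD 1. Levels in sorted bulk cells cannot tell fewer cells of a type from less RNA per cell, and the part of leukocyte RNA in the Vcam1 and Itgb2 values was not tested.

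Fibroblasts and mural cells, which can also carry VCAM1, were read in the same way. The summed count of 7 measured fibroblast markers of 14 was 32698 to 66754 in WT and 35836 to 38722 in 5xFAD, and that of 4 mural markers of 12 was 2507 to 8628 and 3400 to 4645. The 9 blood endothelial markers of 15 summed to 20073 to 33394 and 22851 to 33571. In all 3 lists the genotypes overlapped and no marker passed the test by limma, while the part of these cells in the Vcam1 values was not tested. The single measured genes of the erythroid and epithelial lists (Hbb-bt and Ttr) did not pass either.

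The labelled cell type was borne out by its markers, with 13 of 14 lymphatic endothelial markers listed and their sum at 223295 to 292885 in WT and 235261 to 357582 in 5xFAD. None of the 13 passed the test by limma.

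**Figure D4:**
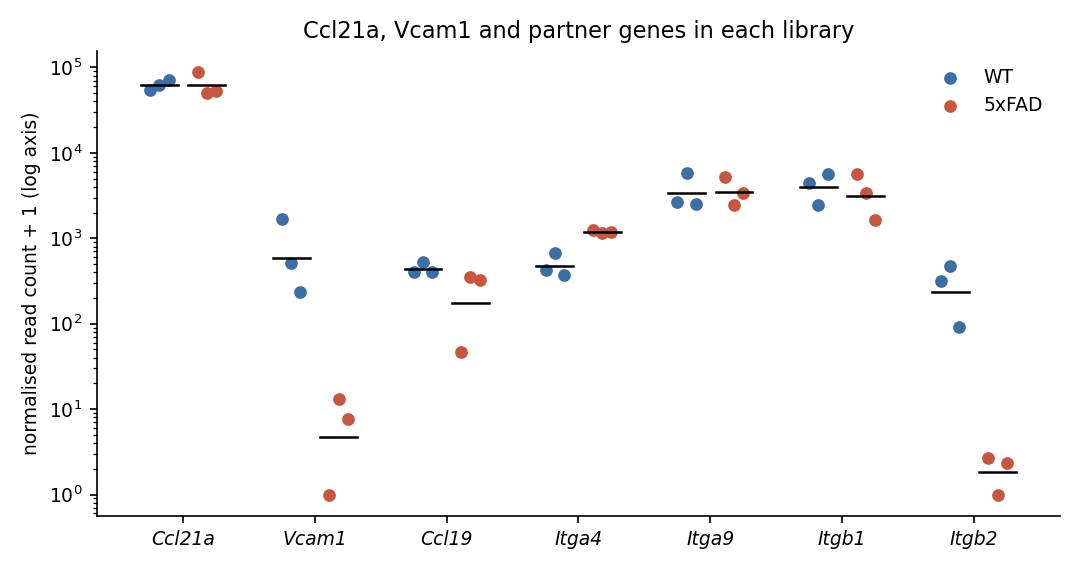
Normalised read count + 1 on a log axis for Ccl21a, Vcam1, the CCR7 ligand Ccl19 and 4 integrin chains, with 1 point per library (WT blue, 5xFAD red) and a bar at the mean of the log values. Vcam1 (233 to 1658 against 0 to 12.2) and Itgb2 (89.3 to 471 against 0 to 1.66) are separated by genotype, while Ccl21a overlaps.

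The other genes of leukocyte trafficking were read in 12 lists by role, of which 96 of 267 symbols were measured and tested. Of these 96, 1 rose and 2 fell, 3.12% in all, against 6.36% of all 4152 genes tested (1.88% higher and 4.48% lower). Groups did not overlap for 10 of the 96 (10.4%), against 18.1% of all genes tested. The median log2 fold change of the 96 was -0.02, as it was over all genes tested.

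Of the 3 tested chemokine ligands (Gm21541, Ccl19 and Cxcl12, a chemokine of stromal cells and blood endothelium) and the 3 tested receptors, 0 passed by limma. The other Ccl21a copy, Gm13304, was not in the ligand list, and its test is given above. Cxcl12 had a log2 fold change of -0.29 and the decoy receptor Ackr3 of -0.32 (limma adjusted p = 0.920 and 0.927).

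Among 11 tested adhesion receptors other than Vcam1, 0 passed (median log2 fold change 0.19). Stab1, a scavenger receptor on which leukocytes can roll, averaged 20105 ± 2742 across WT and 32872 ± 17624 across 5xFAD libraries (SD, n = 3; limma adjusted p = 0.556), and Cd47, a ligand that restrains phagocytes, was at 11141 ± 2333 and 12872 ± 8168 (limma adjusted p = 0.959). Alcam, an adhesion molecule of the same superfamily as VCAM1, lay opposite to it at 337, 684 and 123 in WT and 6135, 1450 and 1031 in 5xFAD. Its groups did not overlap, and it missed the threshold (log2 fold change 2.77, SE 0.97; limma adjusted p = 0.0593). It passed without WT 2 (limma adjusted p = 0.047), without 5xFAD 3 (limma adjusted p = 0.0454), by edgeR (adjusted p = 0.0473) and by DESeq2 (adjusted p = 0.0126). It did not pass without 5xFAD 1 (log2 fold change 2.0, limma adjusted p = 0.41) or without WT 3 (2.12, limma adjusted p = 0.309). Nor did it pass without WT 1 (limma adjusted p = 0.121) or without 5xFAD 2 (limma adjusted p = 0.0726). Alcam was named after its values were seen.

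Of 11 tested junction proteins that leukocytes pass, 0 passed the test by limma. Cdh5, the endothelial cadherin, was at 18674 ± 8090 in WT and 13528 ± 4661 in 5xFAD, and Ptprb, a phosphatase that acts on it, at 19720 ± 3728 and 15253 ± 3107 (SD, n = 3; limma adjusted p = 0.764 and 0.775). Of 12 tested genes of the actin-linked structure that forms around a bound leukocyte, 0 passed as well. Msn, which tethers VCAM1 to actin, had a log2 fold change of 0.02 and Rac1, a small GTPase, of 0.03 (limma adjusted p = 0.992 and 0.987).

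For the matrix side of CCL21, 1 of 9 tested genes of heparan sulfate and its proteoglycans rose by limma. This was Xylt1, the xylosyltransferase that starts the sugar chain on the core protein, at 367, 67.9 and 246 in WT and 1518, 9827 and 720 in 5xFAD. Its log2 fold change was 3.58 (SE 0.99; limma adjusted p = 0.00687). Its groups did not overlap, but the call was lost without WT 2 (2.87; limma adjusted p = 0.118) and without 5xFAD 2 (2.51; limma adjusted p = 0.226), and the value was 4.39 without 5xFAD 3. Hspg2, the core protein perlecan, and Sulf2, which removes sulfates from the chain, had log2 fold changes of 0.42 and -0.71 (limma adjusted p = 0.758 and 0.684).

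The 4 tested genes of sphingosine-1-phosphate, the lipid that guides lymphocytes out of tissue, had a median log2 fold change of -0.57, with 0 past the test. S1pr1 and Plpp3, a phosphatase that degrades the lipid, were at 0.43 and -0.31 (limma adjusted p = 0.855 and 0.878). Of 9 tested hyaluronan, semaphorin and lectin genes of lymphatic entry, 0 passed. Their log2 fold change was positive for 7 (median 0.67), against 2049 of all 4152 genes tested (median -0.02). Nrp2, a co-receptor of lymphatic vessels, was at 17231 ± 7513 and 33451 ± 12197 (SD, n = 3; limma adjusted p = 0.119), and Plxnd1, a semaphorin receptor, had a log2 fold change of 0.04 (limma adjusted p = 0.985).

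In NF-κB signalling, the pathway that raises VCAM1, 1 of 10 tested genes fell by limma. Nfkbiz, a nuclear inhibitor-like protein that is itself induced by NF-κB, was at 1509, 3375 and 3579 in WT and 83.8, 466 and 215 in 5xFAD, with no overlap (log2 fold change -3.69, SE 0.97; limma adjusted p = 0.00399). Without 5xFAD 1 it was at -3.05 and the call was lost (limma adjusted p = 0.0571), and without 5xFAD 2 it was at -4.28. Nfkb1, a subunit of the factor, was at 1152, 1691 and 850 in WT and 6526, 2618 and 2768 in 5xFAD, also without overlap, and did not pass (log2 fold change 1.61; limma adjusted p = 0.315). Ikbkb, the kinase that releases the factor, was at 0.94 (limma adjusted p = 0.581). The median of the 10 was 0.45, of opposite sign to the called gene.

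Of 13 tested transcription factors and cofactors linked to VCAM1, 0 passed by limma. Nfatc1, a calcium-regulated factor, and the coactivator Ep300 had log2 fold changes of -1.26 and 0.24 (limma adjusted p = 0.313 and 0.919). Sp1, a factor that binds GC-rich promoters, averaged 5780 ± 1147 across WT and 2078 ± 580 across 5xFAD libraries with no overlap (SD, n = 3; limma adjusted p = 0.280), and it was named after its values were seen. Of 7 tested sheddases and inhibitors, 0 passed. Timp3, an inhibitor of the proteases that cut VCAM1 from the surface, was at 42943 ± 2861 and 46835 ± 6760 (SD, n = 3; limma adjusted p = 0.913). Timp2, another metalloprotease inhibitor, had a log2 fold change of -0.33 (limma adjusted p = 0.827).

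**Figure D5:**
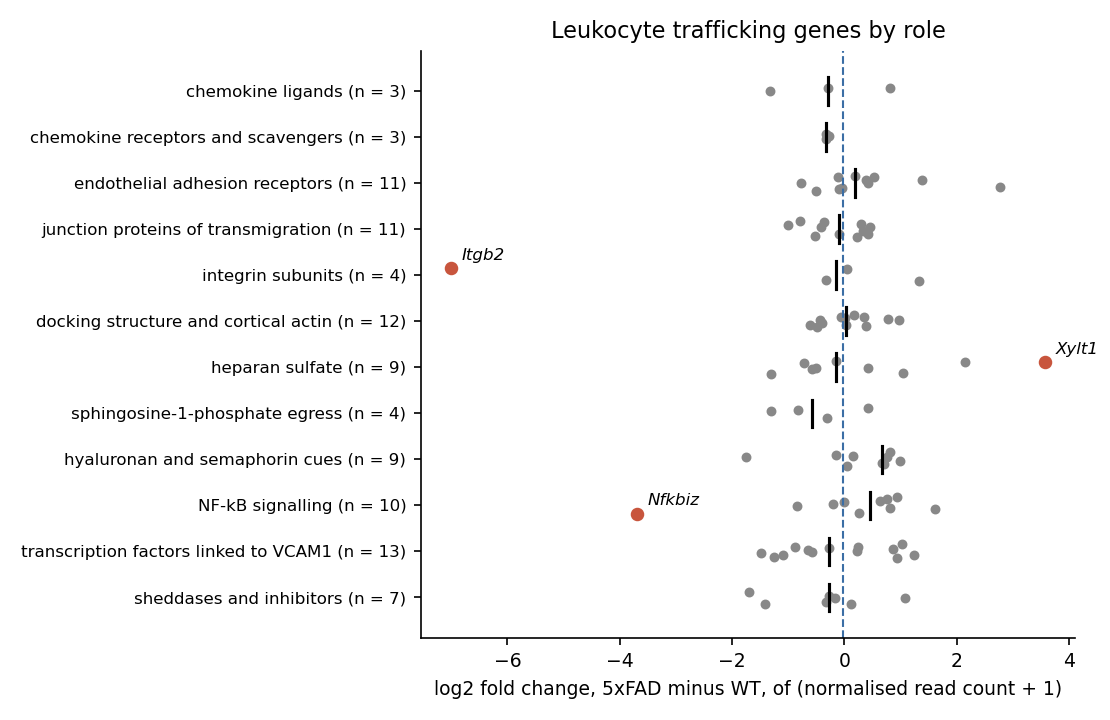
Log2 fold change, 5xFAD minus WT, of the 96 tested trafficking genes other than Ccl21a and Vcam1 in 12 role lists, with n the genes tested, red points for those past the test (limma adjusted p under 0.05), black bars for each list's median and the dashed line for the median of all genes tested (-0.02). Itgb2 (-7.01), Nfkbiz (-3.69) and Xylt1 (3.58) are the red points, and the list medians run from -0.57 to 0.67.

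The 2 genes did not share a pattern over the 6 libraries (Pearson r = -0.374 on log2 values). Likeness is given as a description over 6 libraries, in each of which all genes share the same depth and scaling factor. The named genes most like Ccl21a were Sh3bgrl3 (r = 0.973), Msn (0.972), Cdc42 (0.953), Plxnd1 (0.951) and Hcfc1 (0.945), and 16 genes had r of 0.9 or more. Its copies were less alike, with r of 0.619 for Gm21541 and -0.254 for Gm13304. The division of reads among these near-identical genes enters both values, and its part in them was not tested.

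Among the genes most like Vcam1 were Mtmr12 (r = 0.986), Abr (0.976) and Fbxo44 (0.964), and 94 genes had r of 0.9 or more. A gene chosen for its likeness to Vcam1 over these libraries has to follow the separation of Vcam1 by genotype, so no test between genotypes is given for it.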

How the data were processed

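RNA was sequenced from 6 libraries of sorted meningeal lymphatic endothelial cells, 3 per genotype, after linear amplification, per the labels' protocols. The deposited values are a normalised signal, which by their steps are gene counts scaled with a single factor for each library. Per the submitters' processing notes, the tools were FastQC, Trimmomatic, Salmon and DESeq2 and the build mm10, with neither roles nor settings given. Dividing each column by its lowest nonzero value gave whole numbers throughout (100% within 1e-06), taken as the recovered reads, 7960827 to 13255050 per library over the 4233 listed genes. These totals are a part of each library, not its depth.

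Genes with a mean value of at least 10 (4152) were fitted on log2(value + 1) with limma 3.58.1 (R 4.3.3, variance prior following the mean). Its prior degrees of freedom were infinite: each SE reflects genes of like level, not the gene's own spread. Calls were Benjamini-Hochberg adjusted p under 0.05, two-sided. On recovered reads edgeR 4.0.16 called 80 genes higher and 171 lower, and DESeq2 1.42.0 was run too; other settings changed the pseudocount, filter, scaling, prior, replicate block and the libraries used. The fit was tested on simulated data, where it called only a small part of the genes changed by 2 on the log2 scale. A gene that did not pass may therefore still have changed. Ccl21a, Vcam1 and the role lists were chosen with earlier results of these data known. Named genes were those 2, every called list gene, the 2 most abundant tested genes per list, the Ccl21a copies, the nearest listed genes and the 5 most correlated genes, some of which are not reported here. Of 474 Ensembl names, 453 matched a symbol. Sequences and positions are from GENCODE M21 (GRCm38, the assembly of mm10).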

Additional observations from a re-analysis of the deposited data

How the results depend on the processing

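The limma test as reported called 78 genes higher and 186 lower. With a mean of at least 50 the counts were 49 and 116 (fewer genes tested), and with DESeq2 they were 163 and 264, for which the cause was not tested. Among the 96 trafficking genes, 1 was higher and 2 were lower. By edgeR and by DESeq2 2 were higher, Alcam being added, and the cause was not tested. Leaving out single libraries gave 54 to 85 higher and 143 to 192 lower genes in all, and 1 to 2 higher and 1 to 2 lower trafficking genes. With the replicate block there were 80 higher and 190 lower genes, and 1 and 2 trafficking genes. The pairing had no hold in the data: deviations correlated at 0.00247, -0.0157 and -0.0126 within numbers, and for 0 of 6 libraries was the partner of its number the closest. The Ccl21a difference was -0.25 to 0.16 with single libraries left out and -0.11 to 0.22 in 8 other settings. Its sign changed among them. Each move was less than the SD in 5xFAD (0.44), but those without 5xFAD 1 and with the summed copies were more than the SD in WT (0.19). The Vcam1 difference was -7.73 to -5.87 with single libraries left out, where its sign could not change. In the other settings it was -7.36 to -5.27 (pseudocount 10). The sum of the 3 Ccl21 copies (0.22) was added after seeing the data. Over 17 settings (16 for Cd8a, which a mean of at least 50 leaves out) the adjusted p was at most 6.22e-06 for Itgb2, 0.00725 for Cd8a, 0.0571 for Nfkbiz and 0.226 for Xylt1 (limma for each of these highest values).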
